A study of Mus musculus with 6 samples.

Results

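Granzymes are serine proteases that cytotoxic lymphocytes store in granules, and perforin is the pore-forming protein released with them. The 10 genes described here are the granzyme genes Gzma, Gzmb, Gzmc, Gzmd, Gzme, Gzmf, Gzmg, Gzmn and Gzmk and the perforin gene Prf1, chosen by mouse symbol from the 55401 genes of the count table. Bulk RNA sequencing had been carried out on 6 samples of mouse T cells cultured with filtered macrophage supernatant. In 3 samples the macrophages had been stimulated for 24 h with 5 µg/mL of NFL (neurofilament light chain, an intermediate filament protein of nerve fibres), and in the other 3 they had been left untreated (control). The NFL was described as prepared from sciatic nerve lysate. The paper that reported these data names a purchased NFL protein for its mouse treatment and lists nerve lysate separately. Which preparation was used for these samples cannot be told from the sources used here. In both groups the T cells had been taken from spleen with beads against CD8a, the macrophages derived from spleen monocytes selected for CD11b, kept for 7 days with M-CSF at 50 ng/mL, and the supernatant made up 50% of RPMI-1640 medium with 2% serum. No strain, age or genotype of the spleen donors was given for this experiment, and nothing in the labels says whether the 3 samples of a group came from separate animals or cultures, so the p-values measure the spread between these samples, which may be technical.

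After a granule is released against a target cell, perforin opens the target membrane and granzymes enter and cleave proteins inside it. Granzyme B cleaves after aspartate and can activate caspases directly, whereas granzymes A and K cleave after basic residues and act by other routes. In the mouse, Gzma and Gzmk lie next to each other on one chromosome, and Gzmb lies in a cluster with the rodent genes Gzmc, Gzmd, Gzme, Gzmf, Gzmg and Gzmn on another. Interleukin 2 signalling, T-box factors and RUNX factors are known regulators of these genes.

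Both genes of the chromosome 13 pair were lower with NFL supernatant than with control supernatant, and 3 genes of the Gzmb cluster were higher. The level of Gzma fell by 26.9% and that of Gzmk by 33%, whereas Gzmd, Gzme and Gzmg rose by 25.1%, 29.5% and 23.4%. Gzmb itself and Prf1 did not pass the test. All 5 changed genes had groups of libraries that did not overlap.

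The positions of the genes are given on GRCm38, since all 10 identifiers and their versions were identical to GENCODE release M21, although the submitters' processing notes name GRCm39. Gzma (ENSMUSG00000023132.8) spans chr13:113093825-113100981 and Gzmk (ENSMUSG00000042385.14) chr13:113171608-113225908, 70.6 kb apart. The 7 genes of the Gzmb cluster fill 144.6 kb of chromosome 14, from Gzme at 56117626 to Gzmb (ENSMUSG00000015437.5), which ends at 56262260. All 9 granzyme genes are on the minus strand, and Prf1 is on the plus strand at chr10:61297833-61304680.

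Because several of the cluster genes are close copies of one another, the first 60 coding bases are shown for the 9 granzyme genes, read from the GENCODE transcripts. Capitals mark bases that differ from Gzmd at the same distance from the start codon. The start codon begins at position 56132522 for Gzmd, 56120556 for Gzme and 56159524 for Gzmg on chromosome 14, and at 113100951 for Gzma and 113180897 for Gzmk on chromosome 13. The first coding exon holds 55 of these bases in the cluster genes, and all 60 in Gzma and Gzmk.
Gzmd: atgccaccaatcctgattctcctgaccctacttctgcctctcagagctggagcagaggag
Gzme: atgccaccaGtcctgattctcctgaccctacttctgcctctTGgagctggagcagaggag
Gzmg: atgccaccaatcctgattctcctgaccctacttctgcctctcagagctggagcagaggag
Gzmf: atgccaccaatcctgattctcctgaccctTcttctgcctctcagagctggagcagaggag
Gzmc: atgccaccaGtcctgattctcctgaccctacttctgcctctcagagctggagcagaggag
Gzmn: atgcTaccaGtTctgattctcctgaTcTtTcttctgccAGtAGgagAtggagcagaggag
Gzmb: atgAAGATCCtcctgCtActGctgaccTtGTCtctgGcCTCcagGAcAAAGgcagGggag
Gzma: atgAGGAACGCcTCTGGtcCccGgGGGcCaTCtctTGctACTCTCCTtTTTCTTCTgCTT
Gzmk: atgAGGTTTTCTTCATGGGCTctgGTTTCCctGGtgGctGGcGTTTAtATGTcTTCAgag
Gzmg was identical to Gzmd over this stretch, Gzmf and Gzmc differed at 1 base, Gzme at 3 and Gzmn at 11. Gzmb differed at 25 bases, and Gzma and Gzmk at 42 each.

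Over the whole coding sequence, Gzmd and Gzme were 93.3% identical, Gzme and Gzmg 89.3% and Gzmd and Gzmg 86.6%. Gzmb was 75.6% identical to Gzmc, its nearest relative among the 9, and 64.9% identical to Gzmd. Gzma and Gzmk were 54.2% identical. Against the cluster genes, Gzma was 51.3% to 52.9% and Gzmk 49.4% to 51.6% identical. The similarity within the cluster matters for how reads are assigned. Of all 50-base windows of the Gzmd transcript, 21.9% also occurred in a transcript of another gene, and the share was 20.6% for Gzme and 19.8% for Gzmg. At 100 bases the shares were 0.231% for Gzmd, 0% for Gzme and 0.247% for Gzmg. The read length and the counting of reads that match several genes were not given in the sources used here, so the split of counts among Gzmd, Gzme and Gzmg is uncertain. If such reads were left out, the levels of these genes would be too low as well. For Gzma, Gzmk, Gzmb and Prf1 no 50-base window was shared with another gene. For Gzmf, 6.71% of 100-base windows were shared with Gm4022, an antisense gene that overlaps Gzmf and Gzmn.

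The 150 bases upstream of the start site are shown for the 5 genes that changed and for Gzmb. They are RefSeq promoters on GRCm38.p6, 5′ to 3′ along the gene's own strand. All 10 genes had an entry. Capitals mark matches to 7 short motifs searched on both strands: RUNX (TGTGGT), T-box (TCACACC), STAT (TTCNNNGAA), AP-1 (TGANTCA), cAMP response element (TGACGT) and 2 forms of the NF-κB motif (GGGACTTTC and GGAATTTCC).
Gzma (chr13:113100982-113101131, minus strand): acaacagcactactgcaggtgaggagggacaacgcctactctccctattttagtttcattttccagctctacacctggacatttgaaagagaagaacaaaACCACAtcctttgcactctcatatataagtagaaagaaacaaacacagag
Gzmk (chr13:113180966-113181115, minus strand): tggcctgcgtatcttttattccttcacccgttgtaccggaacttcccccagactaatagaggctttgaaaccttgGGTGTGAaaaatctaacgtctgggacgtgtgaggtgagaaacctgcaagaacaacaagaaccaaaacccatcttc
Gzmd (chr14:56132594-56132743, minus strand): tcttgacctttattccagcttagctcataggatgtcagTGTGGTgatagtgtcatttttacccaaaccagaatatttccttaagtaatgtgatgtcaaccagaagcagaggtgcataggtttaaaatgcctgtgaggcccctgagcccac
Gzme (chr14:56120626-56120775, minus strand): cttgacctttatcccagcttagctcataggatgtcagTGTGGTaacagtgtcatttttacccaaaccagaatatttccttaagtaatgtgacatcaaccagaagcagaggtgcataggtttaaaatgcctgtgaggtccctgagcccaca
Gzmg (chr14:56159580-56159729, minus strand): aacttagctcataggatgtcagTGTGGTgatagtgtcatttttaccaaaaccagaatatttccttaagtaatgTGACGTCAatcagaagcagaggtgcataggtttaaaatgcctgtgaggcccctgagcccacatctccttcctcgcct
Gzmb (chr14:56262335-56262484, minus strand): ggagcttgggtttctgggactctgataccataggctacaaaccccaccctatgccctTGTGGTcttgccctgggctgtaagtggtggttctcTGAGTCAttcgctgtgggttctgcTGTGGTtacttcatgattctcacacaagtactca
The upstream 250 bases of Gzmd and Gzme were 94.8% identical. Gzmg was 78.6% identical to Gzmd. The likeness was not particular to the genes that rose, since Gzmc was 80.5% identical to Gzmd and Gzmf was 82.2% identical to Gzmg. Gzmb and Gzmn did not share this likeness. Gzmb was 45% identical to Gzmd and Gzmn 43.6%, near the 46.3% of Gzma to Gzmd. Gzma and Gzmk were 44.7% identical to each other. The RUNX letters occurred 2 times in the 250 bases of each of Gzmb, Gzmc, Gzmd, Gzme, Gzmf and Gzmg, 1 time in Gzma and in Prf1, and not in Gzmk or Gzmn. Of all 32817 promoters, 14% held them. The T-box letters occurred in Gzmk alone among the members, and in 3.33% of all promoters. The AP-1 letters occurred in Gzmb alone among the members (6.75% of all promoters). The cAMP response element occurred in Gzmc, Gzmf and Gzmg, as an overlapping match on both strands, and 1 time in Prf1 (6.46% of all promoters). The STAT letters (7.01% of all promoters) and both NF-κB forms (0.289% and 0.286%) had no match in the 10 windows. These are matches of letters, and no binding was measured. The RefSeq start of Gzmk lies 44943 bases inside the GENCODE span of the gene, and for the other 9 members the starts differed by at most 74 bases.

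The total count per library was 15843045 to 24639756, and TMM scaling factors were close to 1 (0.9936 to 1.0074). Levels are given as CPM, the read count scaled to library size after TMM adjustment, and a floor of 3 counts corresponded to 0.122 to 0.189 CPM. The marker levels in this paragraph are on library totals alone, without TMM scaling. The T-cell gene Thy1 was at 1566 to 1707 CPM and Cd3e at 48.8 to 65 CPM. Cd247 was at 37.5 to 47 CPM, Cd3g at 6.01 to 8.85, Lck at 3.64 to 5.93 and Cd3d at 2.34 to 4.8 CPM. Of the 8 T-cell markers listed, 6 were above the floor in at least 1 library, and Cd2 and Cd5 had 0 counts in every library. The bead-selected cells had little RNA of the CD8 chains, with Cd8a at 3.22 to 4.49 CPM and Cd8b1 at 0.865 to 1.58 CPM, against 23.2 to 27.5 CPM for Cd4. The label CD8 T cell was therefore not matched by the levels of its own defining genes. Several general T-cell markers were also low (Cd3d, Cd3g and Lck) or at 0 counts (Cd2 and Cd5). The cells are called T cells here after their description, which these marker levels do not establish. Of the 7 macrophage markers, 4 had 0 counts in every library and the sum of all 7 was at most 0.325 CPM. In bulk RNA, fewer cells of a type and less RNA per cell cannot be told apart.

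Of the 10 genes, 9 passed the filter on low counts and were tested by edgeR's quasi-likelihood method. Their p-values were adjusted by Benjamini-Hochberg over all 14082 genes tested. An adjusted p under 0.05 was taken as a call. Of the 9 genes, 5 were called, 3 higher and 2 lower, where 7.00% of all genes tested were called, 3.47% higher and 3.53% lower. The groups did not overlap for these 5 genes, against 22.7% of all genes tested. The changes were modest in size. Among all genes called, the median absolute log2 fold change was 0.19, and the 5 members lay between 0.30 and 0.58. By p-value Gzma ranked 13 among the 14082 genes, Gzmk 25, Gzmd 27, Gzme 52 and Gzmg 84. By size of change over all genes tested, called or not, they stood lower. Gzmk was at 302 and Gzma at 524 among the falls, and Gzme at 680, Gzmd at 829 and Gzmg at 927 among the rises. This order includes genes of low count with large standard errors.

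**Figure D1:**
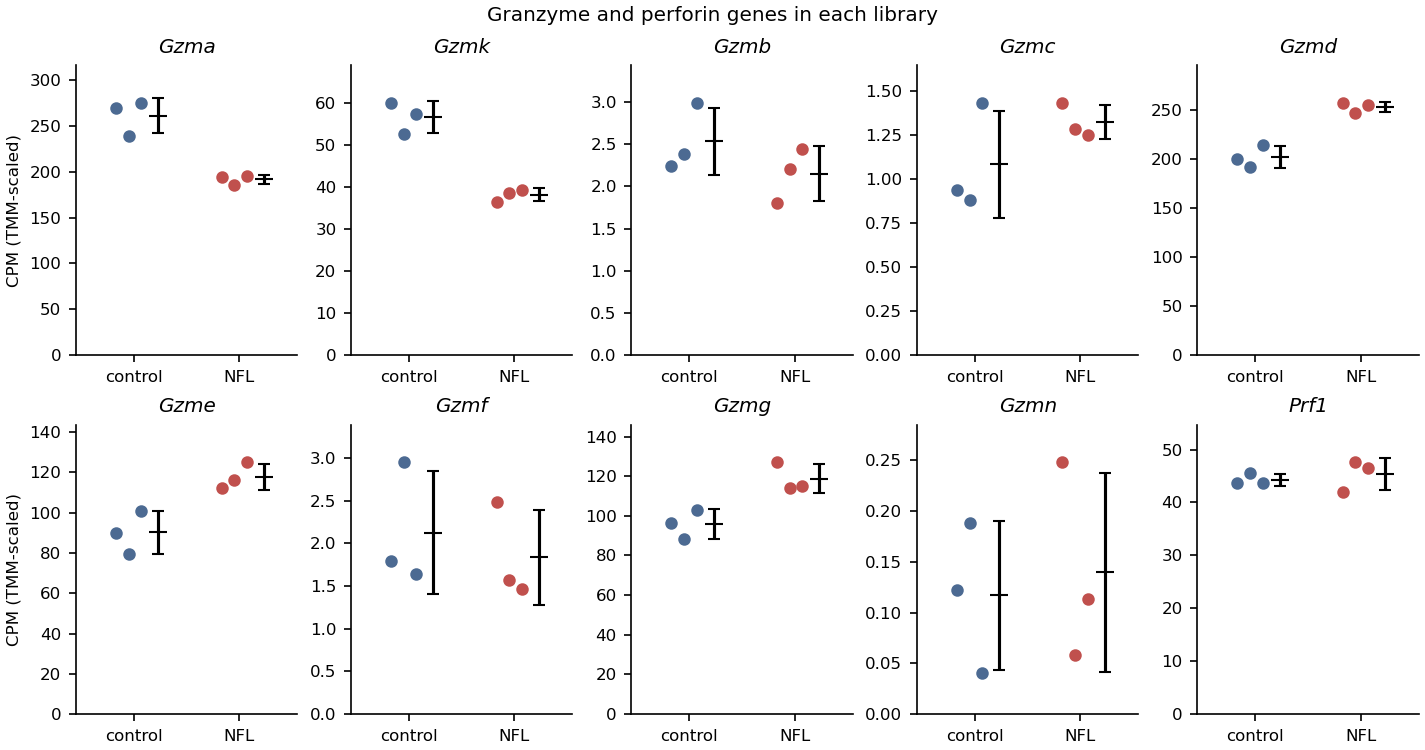
Level of each of the 10 genes by library, in CPM on TMM-scaled library sizes (vertical axis, a separate scale from 0 for each gene), for the 3 control and 3 NFL libraries. Points are libraries and the black mark is the mean with SD (n = 3). The NFL points lie below all control points for Gzma and Gzmk and above them for Gzmd, Gzme and Gzmg.

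Gzma encodes granzyme A, a tryptase that is among the most abundant granzymes of cytotoxic cells. Its level was 270, 239 and 275 CPM in control replicates 1 to 3 and 194, 186 and 195 CPM in NFL replicates 1 to 3. The lowest control library stood above the highest NFL library, and the NFL libraries lay closer together than the control libraries. The means were 261 ± 19.3 CPM and 192 ± 4.56 CPM (n = 3 each, SD), giving a log2 fold change of -0.45 with a standard error of 0.037 (95% interval -0.53 to -0.38, edgeR adjusted p = 1.09e-13).

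Gzmk encodes granzyme K, the other tryptase, found in memory-like and innate-like T cells. It was measured at 60.1, 52.7 and 57.6 CPM in the control libraries and at 36.5, 38.7 and 39.4 CPM in the NFL libraries. Every NFL library was below every control library. From 56.8 ± 3.78 CPM to 38.2 ± 1.48 CPM (SD, n = 3 each), the log2 fold change was -0.58 with a standard error of 0.0604 (95% interval -0.70 to -0.46, edgeR adjusted p = 3.57e-10). Esm1, an endothelial gene, lies inside the span of Gzmk on the opposite strand. Its level was 3.28 ± 0.587 CPM in control and 2.59 ± 0.187 CPM in NFL libraries (SD, n = 3 each, log2 fold change -0.32, edgeR adjusted p = 0.498). How reads in the overlap were counted, and whether strand was used, is not given in the sources used here.

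Natural killer cells also express granzymes, and 1 of their markers moved with the pair. Klrb1c, which encodes the receptor NK1.1, was at 32.5, 29.7 and 32.9 CPM in control and 22.4, 22.7 and 22 CPM in NFL libraries (log2 fold change -0.51, edgeR adjusted p = 2.43e-06). Of the 6 natural killer markers listed, 2 were tested and Klrb1c alone was called, where 7.00% of all genes tested were called. Ncr1, Klrd1 and Klra8 had 0 counts in every library, and Klrk1 had 1 count, in control replicate 1. Fcgr3 was at 36.5, 34.6 and 38 CPM in control and 38.6, 37 and 33.4 CPM in NFL libraries. On library totals alone, without TMM scaling, the summed level of the list was 64.7 to 71.3 CPM in control and 55 to 60.7 CPM in NFL libraries. The T-cell receptor component Cd3e also fell, from 62.1, 64.6 and 56.4 CPM to 50.6, 49.1 and 50.8 CPM (log2 fold change -0.28, edgeR adjusted p = 5.72e-04), less than either member of the pair. It was the only 1 called of 6 T-cell markers tested, where 7.00% of all genes tested were called. The log2 fold change was 0.17 for Cd3d, -0.05 for Thy1, -0.16 for Cd247, -0.21 for Cd3g and -0.38 for Lck (edgeR adjusted p = 0.124 to 0.735). The part of these shifts in the fall of Gzma and Gzmk was not tested.

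In the Gzmb cluster, 3 genes carried nearly all of the counts. Gzmd encodes granzyme D, 1 of the rodent granzymes whose substrates are less well known. It was at 200, 192 and 214 CPM in control and 257, 247 and 255 CPM in NFL libraries, with no overlap. The means were 202 ± 11.2 CPM and 253 ± 5.52 CPM (n = 3 each, SD), giving a log2 fold change of 0.32 with a standard error of 0.0347 (95% interval 0.25 to 0.39, edgeR adjusted p = 7.11e-10).

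Gzme, the gene of granzyme E and the closest copy of Gzmd, was at 90, 79.7 and 101 CPM in control and 112, 116 and 125 CPM in NFL libraries. The groups were separate, with the smallest gap between control replicate 3 and NFL replicate 1. Its log2 fold change was 0.37 with a standard error of 0.0503 (90.1 ± 10.5 against 117 ± 6.63 CPM, SD, n = 3 each, 95% interval 0.27 to 0.47, edgeR adjusted p = 3.31e-07). Gzmg, the gene of granzyme G, was at 96.4, 88.2 and 103 CPM and 127, 114 and 115 CPM in the same order. It rose by a log2 fold change of 0.30 with a standard error of 0.0458 (95.9 ± 7.36 against 119 ± 6.91 CPM, SD, n = 3 each, 95% interval 0.21 to 0.40, edgeR adjusted p = 3.56e-06).

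Since the reads of these 3 genes may have been divided among them, their sum was also taken. It does not recover reads that may have been left out for matching several genes. It was 387, 360 and 417 CPM in control and 496, 477 and 495 CPM in NFL libraries, a ratio of means of 1.26. The split within the sum was as follows. Gzmd took 52.1% ± 1.06 of the counts of the 3 genes in control and 51.7% ± 0.188 in NFL libraries, Gzme took 23.2% ± 0.976 and 24% ± 1.34, and Gzmg took 24.7% ± 0.204 and 24.3% ± 1.17 (SD, n = 3 each). For each gene the difference was smaller than the larger of the group SDs. For Gzmd it exceeded the SD of the NFL libraries, and for Gzmg that of the control libraries.

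The remaining cluster genes had low counts, and Gzmn alone was at the floor of 3 counts. Gzmb encodes granzyme B, the caspase-activating protease by which cytotoxic cells are often recognised. Its counts were 55, 38 and 73 in control and 29, 38 and 43 in NFL libraries, which is 2.24, 2.38 and 2.99 CPM against 1.8, 2.21 and 2.44 CPM. The groups overlapped. The log2 fold change was -0.24 with a 95% interval of -0.75 to 0.27 (edgeR adjusted p = 0.682), an interval that holds both a fall as large as that of Gzma and a small rise, so the direction of Gzmb was not detectable at this depth. Gzmc had 14 to 35 counts per library (log2 fold change 0.26, 95% interval -0.45 to 0.97, edgeR adjusted p = 0.769) and Gzmf had 26 to 47 (log2 fold change -0.18, 95% interval -0.77 to 0.42, edgeR adjusted p = 0.822). Gzmn had 3, 3 and 1 counts in control and 4, 1 and 2 in NFL libraries, was removed by the filter, and is given no fold change.

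Prf1, the gene of perforin, was at 43.7, 45.5 and 43.6 CPM in control and 41.9, 47.6 and 46.5 CPM in NFL libraries. The NFL libraries fell on both sides of the control libraries. The means were 44.3 ± 1.06 CPM and 45.3 ± 3.05 CPM (n = 3 each, SD), giving a log2 fold change of 0.04 with a 95% interval of -0.08 to 0.16 (edgeR adjusted p = 0.814). A change of the size measured for any of the 5 called granzyme genes lies outside this interval.

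**Figure D2:**
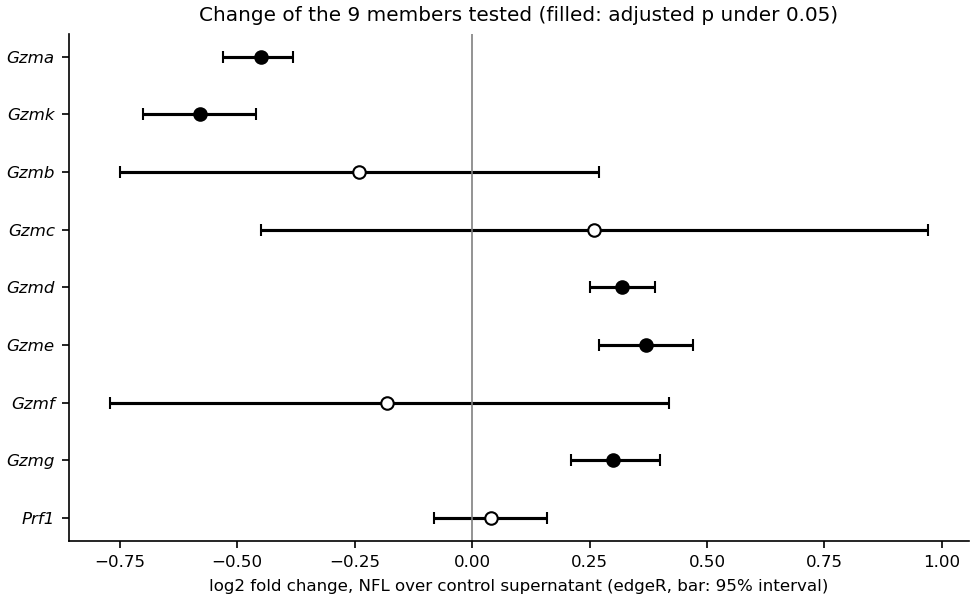
Log2 fold change of NFL over control supernatant (horizontal axis) for the 9 members tested, with 95% intervals from edgeR. Filled points had an adjusted p under 0.05. Gzma and Gzmk lie left of 0, Gzmd, Gzme and Gzmg right of it, the interval of Prf1 is narrow around 0, and those of Gzmb, Gzmc and Gzmf are wide.

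To set the levels of the genes against each other, CPM was divided by the summed exon length of each gene (CPM per kb). The order of the genes and their shares depend on how reads matching several cluster genes were counted, which is not known. In the control libraries Gzma was the highest at 260 ± 19.2 CPM per kb (SD, n = 3), followed by Gzmd at 209, Gzmg at 105, Gzme at 98.4, Gzmk at 40.9 and Prf1 at 17.1. Gzmf at 2.31, Gzmb at 1.77 and Gzmc at 1.21 were far below, and Gzmn was lowest at 0.118. In the NFL libraries the order of the first 2 genes was inverted. Gzma was at 268, 238 and 273 CPM per kb and Gzmd at 208, 199 and 222 in control libraries, and Gzma was at 193, 185 and 193 and Gzmd at 267, 256 and 265 in NFL libraries. Gzmg was above Gzme in each control library (106, 97.1 and 113 against 98.3, 87 and 110). In the NFL libraries their order was not constant (140, 126 and 127 against 122, 126 and 136). The ranges of Gzmf and Gzmb overlapped in both groups. Over the 6 libraries the mean level of Gzma was at or above that of 99% of 13694 tested genes with a known length, Gzmd also 99%, Gzmg 97.4%, Gzme 97.3%, Gzmk 88.2% and Prf1 75.7%, whereas Gzmb was at 25.8%. The granzyme RNA of these cells was thus mainly that of Gzma and Gzmd, Gzme and Gzmg.

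As a share of the summed level per kb of the 9 granzyme genes, Gzma and Gzmk together took 42.8%, 41.5% and 41.1% in control and 29.1%, 29.3% and 29.4% in NFL libraries. The groups did not overlap, and the NFL libraries lay closer together than the control libraries. Gzma moved from a mean of 36.1% to 25.6% and Gzmk from 5.69% to 3.69%, while Gzmd moved from 29.1% to 35.3%, Gzmg from 14.7% to 17.6% and Gzme from 13.6% to 17.2%. Gzmb took 0.245% and 0.201%.

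**Figure D3:**
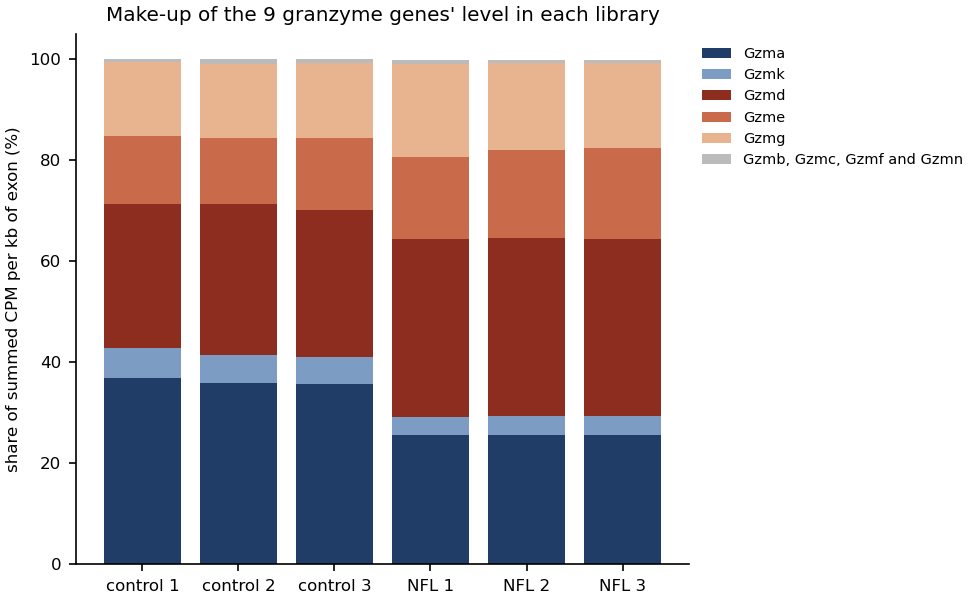
Share of each granzyme gene in the summed CPM per kb of exon of the 9 granzyme genes (vertical axis, percent), by library. Blue bars are Gzma and Gzmk, red bars are Gzmd, Gzme and Gzmg, and grey is the sum of the other 4, which is barely visible. The blue part is 41.1% to 42.8% in control and 29.1% to 29.4% in NFL libraries.

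In CPM, the pair summed to 330, 292 and 333 in control and 231, 225 and 234 in NFL libraries, and the Gzmb cluster to 392, 366 and 424 and to 502, 482 and 501. The pair fell by 88.3 CPM (ratio of means 0.722) and the cluster rose by 101 CPM (ratio of means 1.26). Each library's pair sum divided by its cluster sum was 0.843, 0.798 and 0.785 in control and 0.46, 0.467 and 0.467 in NFL libraries. A ratio within a library does not depend on its scaling, and these ratios did not overlap.

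Ratios of single genes within a library were compared by an exact permutation test of the log2 ratio, two-sided, which with 3 against 3 libraries cannot go below p = 0.1. There were 5 such ratios in the family, and none passed after Benjamini-Hochberg adjustment. Gzma to Gzmd was 1.35, 1.25 and 1.29 in control and 0.754, 0.755 and 0.762 in NFL libraries, a log2 difference of -0.77. Gzmk to Gzmd was 0.3, 0.275 and 0.269 against 0.142, 0.157 and 0.154, a log2 difference of -0.90. Both had no overlap and the smallest p that the exact permutation test allows (0.1, adjusted 0.167), and both were added after the counts of Gzmb had been seen to be low. The ratio of Gzma to Gzmk was 4.5, 4.54 and 4.77 in control and 5.31, 4.82 and 4.94 in NFL libraries, a log2 difference of 0.13. It too had no overlap and the smallest p possible (exact permutation p = 0.1, adjusted 0.167). The 95% intervals of the falls of Gzma and Gzmk overlapped. With 3 against 3 libraries this test cannot decide whether the 2 genes fell alike. Against Gzmb, whose low counts spread the ratio, the groups overlapped for Gzma (log2 difference -0.21, exact permutation p = 0.3, adjusted 0.3) and for Gzmk (-0.33, exact permutation p = 0.2, adjusted 0.25). A contrast of the pair with Gzmb itself was thus not detectable at this depth, whereas the ratios to Gzmd did not overlap.

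**Figure D4:**
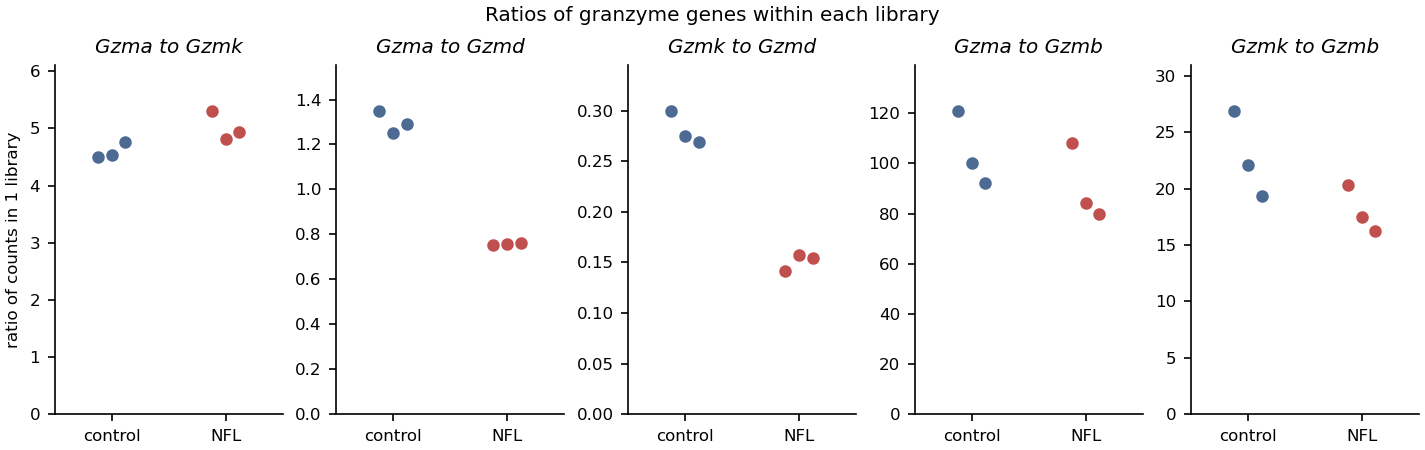
Ratio of the counts of 2 granzyme genes within each library (vertical axis, a separate scale from 0 for each ratio), for 3 control and 3 NFL libraries. The groups are apart for Gzma to Gzmk, Gzma to Gzmd and Gzmk to Gzmd and overlap for the 2 ratios to Gzmb.

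The genes around the pair were counted as well. Within 500 kb of Gzma or Gzmk, 35 further genes are annotated, of which 11 were tested and 0 were called by edgeR, close to the 7.00% called among all genes tested. At an unadjusted p under 0.05 there were 2 by edgeR and by limma-voom and 1 by DESeq2, and limma-voom and DESeq2 also called 0. The median log2 fold change of the 11 was -0.09 (all genes tested: -0.001). Mtrex, which encodes an RNA helicase of the nuclear exosome, had the smallest adjusted p of them (0.0647), and was higher rather than lower with NFL (log2 fold change 0.10). Without NFL replicate 1, Mtrex alone of the 11 was called.

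The Gzmb locus also holds mast cell proteases and cathepsin G. Of 8 such genes, 3 were tested and 1 was called (33.3%, against 7.00% of all genes tested). Cma1, which encodes the mast cell chymase, was at 4.31, 4.14 and 5.65 CPM in control and 3.23, 2.56 and 3.06 CPM in NFL libraries, opposite in direction to Gzmd, Gzme and Gzmg (log2 fold change -0.68, edgeR adjusted p = 0.0226). It was called in 9 of 14 alternative fits, and not by DESeq2. Ctsg, a protease of neutrophil granules, was at 23.8 ± 0.86 and 22.7 ± 2.5 CPM (SD, n = 3 each, log2 fold change -0.07, edgeR adjusted p = 0.717). The mast cell genes Tpsb2, Tpsab1 and Ms4a2 had 0 counts in every library, and the 7 mast cell and basophil markers summed, on library totals alone, to 2.34 to 2.72 CPM in control and 2.53 to 3.2 CPM in NFL libraries.

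Other proteins of the granule were followed in lists. Of 15 genes for granule contents and processing, 14 were tested, and 1 rose and 3 fell (28.6% called, with a median log2 fold change of -0.05, against 7.00% of all genes tested). Ctsw, a cysteine protease of cytotoxic lymphocytes, was at 21.3, 22.3 and 26.7 CPM in control and 13.2, 18.3 and 16.3 CPM in NFL libraries and fell by 0.56 on the log2 scale, with an edgeR adjusted p of 5.63e-05. Srgn encodes serglycin, the proteoglycan that holds granzymes in the granule, and fell by 0.18 on the log2 scale (328 ± 16.7 against 291 ± 6 CPM, SD, n = 3 each, edgeR adjusted p = 1.67e-04). Ctsd, a lysosomal aspartic protease, fell by 0.19 (edgeR adjusted p = 0.00487). Without NFL replicate 3 it was no longer called (adjusted p = 0.11), and its log2 fold change was -0.23 to -0.14 over the alternative fits. Calr, the gene of calreticulin, which binds perforin, rose by 0.11 (edgeR adjusted p = 0.00554). Its call was also lost without NFL replicate 3 (adjusted p = 0.0813), with log2 fold changes of 0.09 to 0.13 over the alternative fits. Ctsc, the protease that activates granzymes by removing their propeptide, was at 127 ± 5.03 and 122 ± 4.19 CPM (SD, n = 3 each, edgeR adjusted p = 0.499), and Nkg7, a granule membrane protein, was at 733 ± 28.4 and 718 ± 8.89 CPM (SD, n = 3 each, edgeR adjusted p = 0.644).

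For granule transport and exocytosis, 18 of 19 genes were tested and 1 was called (5.56%, near the 7.00% of all genes tested, median log2 fold change -0.05). Rab27a, the small GTPase that docks granules at the membrane, was at 142, 137 and 143 CPM in control and 128, 126 and 128 CPM in NFL libraries and fell by 0.14 on the log2 scale, with an edgeR adjusted p of 0.0113. It was called in 11 of 14 alternative fits. Unc13d, which primes granules for fusion, was at 110 ± 3.56 and 106 ± 3.43 CPM (SD, n = 3 each, edgeR adjusted p = 0.488).

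Cells that carry granzymes also make serpins, some of which inhibit granzymes. Of 6 serpin genes listed, 4 were tested and 1 was called (25%, against 7.00% of all genes tested, median log2 fold change 0.07). Serpina3g, an intracellular serpin of activated T cells, was at 37.3, 36.3 and 37 CPM in control and 58.3, 56.9 and 58.9 CPM in NFL libraries. The libraries of each group lay close together and far from the other group (log2 fold change 0.65, standard error 0.0579, edgeR adjusted p = 1.77e-12). Whether its product binds a granzyme was not measured. Serpinb9, the inhibitor of granzyme B, was at 30.2, 30.9 and 30.5 CPM in control and 29.7, 29.6 and 28.8 CPM in NFL libraries (log2 fold change -0.05, edgeR adjusted p = 0.768).

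Among 25 known regulators of granzyme and perforin genes, 18 were tested, and 2 rose and 4 fell (33.3% called, against 7.00% of all genes tested, median log2 fold change 0.00). The receptor for interleukin 2 moved in both directions. Il2ra, its alpha chain, was at 1677, 1608 and 1656 CPM in control and 1847, 1854 and 1883 CPM in NFL libraries (log2 fold change 0.18, edgeR adjusted p = 1.05e-06). Il2rg, the common gamma chain, rose by 0.25 (edgeR adjusted p = 1.66e-04). Il2rb, the beta chain, fell by 0.12 (edgeR adjusted p = 0.00807) and was called in 11 of 14 alternative fits.

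The transcription factors called were all lower. Runx3, a RUNX factor of cytotoxic T cells, was at 331, 323 and 320 CPM in control and 297, 290 and 297 CPM in NFL libraries (log2 fold change -0.14, edgeR adjusted p = 0.00163). Runx1 fell by 0.29 (edgeR adjusted p = 0.0175, called in 11 of 14 alternative fits). Id2, an inhibitor of E proteins in effector cells, was at 434, 423 and 423 CPM in control and 379, 359 and 362 CPM in NFL libraries (log2 fold change -0.22, edgeR adjusted p = 3.95e-07). The T-box factors did not pass. Eomes was at 439 ± 12.2 and 426 ± 10.1 CPM (SD, n = 3 each, log2 fold change -0.04, edgeR adjusted p = 0.486), and Tbx21 was at 24.2, 25.2 and 21.5 CPM in control and 20.4, 20.8 and 19.9 CPM in NFL libraries (log2 fold change -0.21, edgeR adjusted p = 0.134).

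Of 17 death ligands and granzyme substrates, 15 were tested, and 1 rose and 1 fell (13.3% called, against 7.00% of all genes tested, median log2 fold change 0.05). F2r, the thrombin receptor PAR1, which granzymes A and K have been described to cleave, fell by 0.27 on the log2 scale (64 ± 4.49 against 53.2 ± 1.44 CPM, SD, n = 3 each, edgeR adjusted p = 7.53e-04). Bid, the granzyme B substrate upstream of mitochondria, was at 36.2 ± 1.49 and 33.7 ± 0.189 CPM (SD, n = 3 each, edgeR adjusted p = 0.432).

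Likeness of pattern was measured over the 6 libraries as the Euclidean distance between centred log2(CPM + 0.1) values, among 9130 genes of at least 3 mean log2 CPM, and it is a description with no test. The genes nearest to Gzmk included Klrb1c (distance 0.141), Cd53, Lgals3 and Gzma (0.195). Those nearest to Gzma were Itgb3 (0.0907), Klrb1c, Slc26a11, Clnk and Frmd5. Klrb1c stood in both lists. For Prf1 the nearest were Gm38394, Cdc73, Emc2, Gm9531 and Rabep1, none of which was called. For Gzmb they were Vcl, Tax1bp3, Itgb7, 4921531C22Rik and Thap4, at distances of 0.195 or more and with counting error in Gzmb itself.

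**Figure D5:**
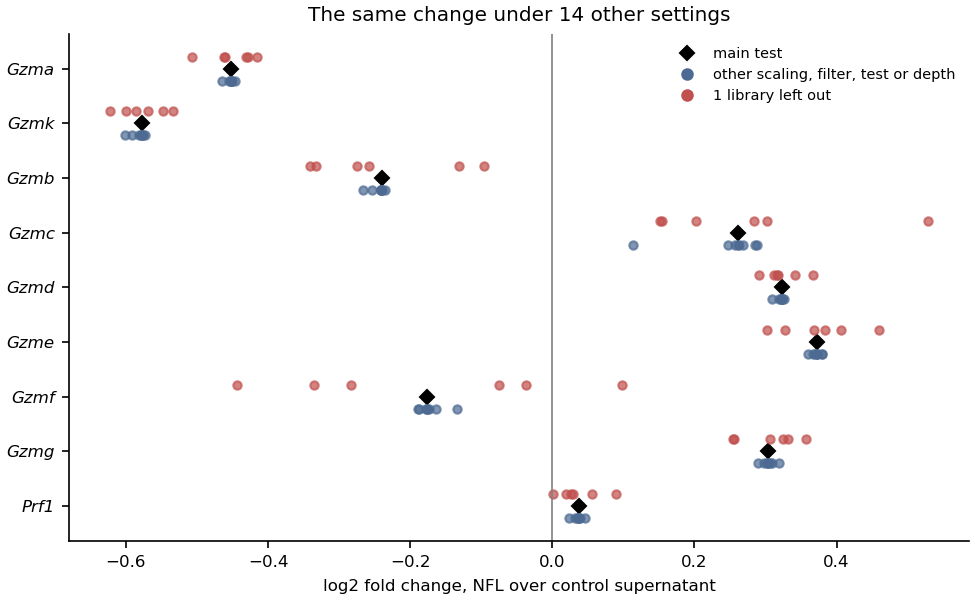
Log2 fold change of NFL over control supernatant (horizontal axis) of the 9 members tested, in the main test (black diamond), with another scaling, filter, test, block or depth (blue) and with 1 library left out (red). The points of Gzma, Gzmk, Gzmd, Gzme and Gzmg stay on 1 side of 0, and those of Gzmf fall on both sides.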

How the data were processed

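RNA of 6 samples of T cells, 3 per group, was sequenced after poly(A) selection. For each of 55401 genes the authors deposited a raw read count per sample, neither normalized nor pooled. Per the labels, R 4.2.1 and limma 3.54.2 were used and the build was GRCm39. The aligner, counting program, annotation release, strand setting and read length are not given in the sources used here. Column names gave the group and number of each sample, and 0 columns were left without a sample.

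Genes were kept with filterByExpr (minimum count 10, minimum total count 15), TMM-scaled and tested with the quasi-likelihood functions (glmQLFit, glmQLFTest) of edgeR 4.0.16 in R 4.3.3, with no block, Benjamini-Hochberg adjustment and a threshold of 0.05. CPM used TMM-scaled library sizes, and marker levels used library totals alone where given as ranges over all libraries. Counting-error floors were set at 3 counts. Total counts were 15843045 to 24639756. In simulated counts of 13849 genes for this comparison, 67 of 99 genes changed by 0.5 on the log2 scale and 89 of 98 changed by 1 were recovered, with 6 false calls. Alternatives were other scalings, filters, DESeq2 1.42.0, limma-voom (limma 3.58.1), a replicate block, thinning and leaving out each library, and ratios to Gzmd were added after seeing the data. Coding sequences came from GENCODE M21, promoters from RefSeq, and alignments from Biopython 1.88. Figures were drawn with matplotlib 3.10.9.

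The members, gene lists, markers and motifs were chosen with earlier results of these data known. The text names all 10 members, the genes of each list past the threshold and list genes with a stated role for granzymes, and the 5 genes of nearest pattern. The symbol Faslg was read as its RefSeq synonym Fasl, and Vamp7 had no row under that symbol. Some single genes are not reported here, and the counts over lists still hold them.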

Additional observations from a re-analysis of the deposited data

How the results depend on the processing

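In 14 alternative fits, which changed the scaling, the filter, the test, the block or the depth or left out 1 library, 5 members were called each time, 3 higher and 2 lower. The log2 fold change with 1 library left out was -0.51 to -0.42 for Gzma, -0.62 to -0.53 for Gzmk, 0.29 to 0.37 for Gzmd, 0.30 to 0.46 for Gzme and 0.25 to 0.36 for Gzmg, and the highest adjusted p over all alternatives was 0.00825, for Gzme. Gzmf, which was not called, ranged from -0.44 without NFL replicate 1 to 0.10 without control replicate 2 (adjusted p = 0.921). Gzmc, also not called, ranged from 0.11 to 0.53 over the alternatives, and Gzmb from -0.34 to -0.10. DESeq2 gave no adjusted p for Gzmb, Gzmc and Gzmf.

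Over all genes, 986 were called, and 516 to 983 with 1 library left out. The count was 615 without NFL replicate 2 and 516 without NFL replicate 3, and fewer samples enter those fits. DESeq2 called 731. With library size alone, 372 genes were higher and 600 lower, against 489 and 497 with TMM, and the direction of the 5 members was as in the main test. With the replicate number as a block (replicate block), 1049 genes and 5 members were called. The deviations of same-numbered libraries from their group means had correlations of -0.012, 0.019 and 0.047. With 3 libraries per group these values cannot show whether same-numbered samples share an animal or a culture, and the labels do not say. Of the named list genes, Ctsd, Calr, Rab27a, Runx1, Il2rb and Cma1 lost their call in at least 1 alternative. The pair and cluster sums and the 5 ratios kept their direction in all 8 alternatives run for each. Low counts limit Gzmb, Gzmc, Gzmf and Gzmn.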
